A study of Homo sapiens with 10 samples.

Results

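The AP-1 sites of transformed ER-Src cells were sorted by which of the 3 mapped AP-1 proteins, FOS, JUN and JUNB, had a ChIP-seq peak there. Peak summits of the 3 lists on chromosomes 1 to 22 and X were placed on 1 axis, and summits no more than 300 bp from their neighbour were merged into 1 site. Each of the 196953 merged sites then had 1 of 7 combinations, from a single protein to all 3. These sites hold 392954 of the 879550 peaks in the 10 lists of the series.

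AP-1 is a dimer of basic leucine zipper proteins. FOS cannot pair with itself and binds DNA as a partner of a JUN protein, whereas JUN and JUNB can pair with FOS proteins, with each other or with themselves, and JUNB is often the weaker activator of the JUN family. STAT3 and NF-κB are the inflammatory transcription factors that are known to act with AP-1 in this model of breast cell transformation, and NFKB1 is a DNA-binding subunit of NF-κB.

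ER-Src cells are a derivative of the mammary epithelial line MCF10A in which v-Src is joined to the hormone-binding part of the estrogen receptor and tamoxifen switches the oncogene on. Every group was this 1 engineered line, and it carried the fusion in both conditions. Transformed cells received 4-hydroxy-tamoxifen at 1 μM for 12 h, and non-transformed cells received ethanol, for 36 h according to the library names written in the lists. Each of 5 proteins (FOS, JUN, JUNB, STAT3 and NFKB1) has 1 list per condition. By its catalogue number, the STAT3 antibody is the one the study lists for the phosphorylated protein.

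After the authors' filter the libraries of transformed cells held 22082403 reads for FOS, 18454386 for JUN, 15750765 for JUNB, 8967267 for STAT3 and 9674390 for NFKB1. The corresponding lists hold 164605, 127335, 101014, 80265 and 73822 peaks. In the library names FOS carries replicate letter B and the other proteins letter A. With 1 sample per group no difference was tested against replicates. The 95% intervals below (Wilson for shares, order-statistic for medians) cover only the sampling of sites within these lists. A protein is called absent from a site when its list has no summit there, and at these depths that does not show that the protein was absent from the DNA.

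Sites with all 3 proteins were the most numerous combination, followed by sites of FOS alone. All 3 proteins were found at 75094 sites, which is 38.1% (37.9 to 38.3) of the total. FOS alone held 49934 sites (25.4%), JUN alone 25372 (12.9%) and JUNB alone 8556 (4.34%). Among the pairs, FOS+JUN held 21972 sites (11.2%), FOS+JUNB 13834 (7.02%) and JUN+JUNB 2191 (1.11%). The pair without FOS was thus the rarest of the 7 combinations.

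Read from each protein, JUNB was the one least often seen by itself. Of 99675 sites with JUNB, 89.2% also had FOS, 77.5% also had JUN and 75.3% had both. Of 124629 sites with JUN, 77.9% had FOS and 62.0% had JUNB. Of 160834 sites with FOS, 60.4% had JUN and 55.3% had JUNB. The order of these shares followed the length of the lists, and FOS, the longest, had the most sites without a partner.

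Equal lists changed that order. When each list was shortened to its 100000 strongest peaks, JUN alone became the largest single-protein combination, with 15.5% of 141733 sites, and JUNB alone (10.8%) passed FOS alone (9.94%). Sites with all 3 proteins made up 46.1% of the total. With 50000 peaks per list they made up 52.2% of 67458 sites. JUN alone was again the largest single-protein combination there (14.1%), while FOS alone (8.10%) was above JUNB alone (7.77%), so the order of FOS alone and JUNB alone depended on the length of the lists. JUN+JUNB made up 3.52% and 4.01% of sites in these shorter lists, and FOS+JUN made up 4.84% and 3.73%, below FOS+JUNB (9.34% and 10.1%).

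**Figure D1:**
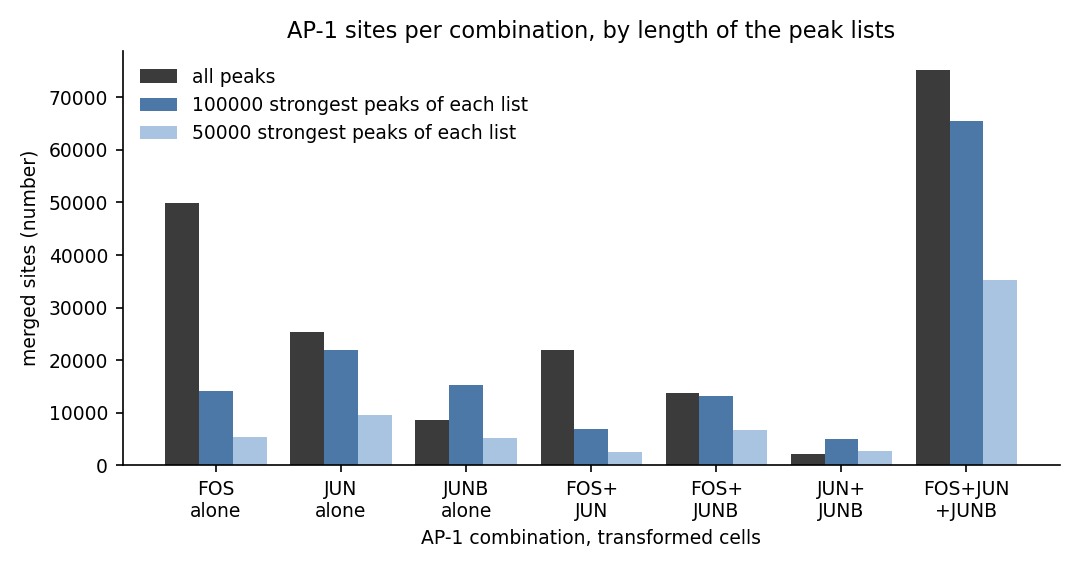
Number of merged AP-1 sites (vertical axis) in each of the 7 combinations (horizontal axis) for all peaks and for the 100000 and 50000 strongest peaks of each list; each bar is 1 count without replicate. The bar for all 3 proteins is the tallest in each setting, while FOS alone drops from 49934 to 14093 and 5466 sites.

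The lists resolved the proteins into compact sites. At 94.9% of the sites of all 3 proteins there was exactly 1 summit of each, and the median site spanned 29 bp from its first to its last summit (90th percentile 100 bp, maximum 1316 bp, reached by chaining). Along the merged axis, 170166 neighbouring summit pairs lay 0 to 50 bp apart. Only 2533 pairs lay over 150 and up to 200 bp apart. The number then rose again to 3427 pairs just inside the merging distance (over 250 bp) and 3963 pairs just outside it (over 300 and up to 350 bp), before falling to 2820 at over 450 and up to 500 bp.

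The strength of a peak followed the number of partners for all 3 proteins. Strength was taken as the fold enrichment over the local background that MACS wrote, ranked within the list of that protein from percentile 0 (weakest) to 100 (strongest). FOS had a median percentile of 22.2 at sites of FOS alone (fold enrichment 5.18), 35.1 at FOS+JUN (6.21), 47.5 at FOS+JUNB (7.76) and 76.8 (76.5 to 77.0) at sites of all 3 (16.1). The FOS peaks with JUNB as the only partner were therefore stronger than those with JUN as the only partner.

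JUN had a median percentile of 22.6 at sites of JUN alone, 35.7 in both of its pairs and 67.9 at sites of all 3, where the median fold enrichment was 9.89 against 5.29 at JUN alone. JUNB had a median percentile of 10.2 alone, 25.02 with FOS, 22.3 with JUN and 62.5 with both. The median fold enrichment of JUNB was 4.69 alone and 10.8 at sites of all 3. Solitary JUNB peaks were the weakest class, and 77.1% of them lay in the weakest 20% of the JUNB list.

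The strongest peaks of any of the 3 proteins almost always sat at sites with the other two. In the strongest decile (10% of peaks) of the FOS list, 99.6% of sites had all 3 proteins, against 3.52% in the weakest decile. The share ran from 27.1% to 99.4% over the JUNB list. Over the JUN list it ran from 18.5% to 97.5%, so JUN kept more partial sites at high strength than the other proteins did. Solitary sites in the top quintile (percentile 80 and above) of their own list numbered 27 for FOS, 18 for JUNB and 260 for JUN.

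**Figure D2:**
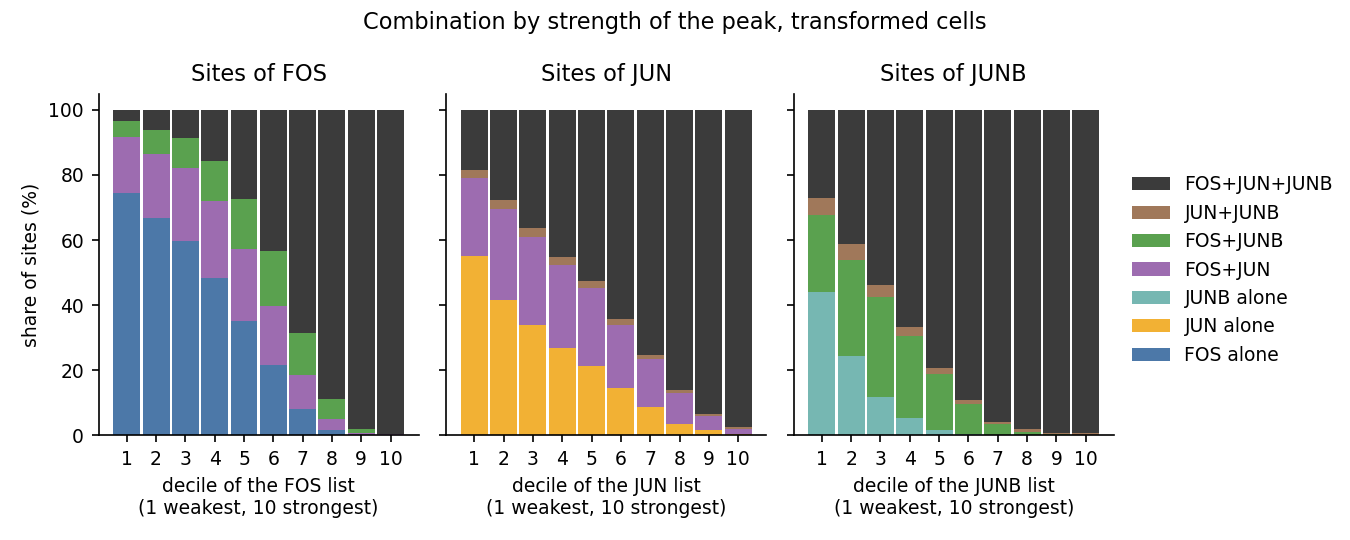
Share of sites in percent (vertical axis) that fall in each combination, by decile of the FOS, JUN and JUNB lists ordered by fold enrichment (horizontal axis, 1 weakest to 10 strongest). The share with all 3 proteins climbs to 99.6%, 97.5% and 99.4% in the strongest decile of FOS, JUN and JUNB.

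Across the 75094 sites of all 3 proteins, the lists ordered the sites alike. Spearman's coefficient of fold enrichment was 0.860 for FOS and JUNB, 0.758 for FOS and JUN and 0.756 for JUN and JUNB, as a description across sites in 1 library each of the same cell line. FOS and JUNB were the closest pair. The leading protein, the one with the highest percentile in its own list, was FOS at 65.2% of these sites, JUN at 24.7% and JUNB at 10.1%. The FOS list is the longest and the JUNB list the shortest, and the part of list length in this order was not tested.

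The site of all 3 proteins with the best ranks lay at chr1:145042526-145043683 (hg19, the build in the submitters' processing notes). FOS had a fold enrichment of 72.7 there, the highest of its list. JUN had 55.2 (rank 9) and JUNB 79.2 (rank 2), and the 3 summits lay within 6 bp. The next 2 sites were at chr4:72978167-72978680, where JUNB had its strongest peak (87.1) beside FOS at 58.5 and JUN at 56.6, and at chr4:181854885-181855183, with FOS at 59.0, JUN at 51.1 and JUNB at 68.9. All 3 sites also had STAT3 and NFKB1 summits, and all 3 had the full combination in non-transformed cells.

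At the best-ranked sites of several combinations the missing proteins lay close by. The 3 best-ranked sites of FOS alone, of JUNB alone, of FOS+JUN and of FOS+JUNB each had another AP-1 site 306 to 417 bp away, and had summits of the proteins they lacked within 1 kb. At chr3:108190580-108191394 the JUNB summit (32.9-fold) lay 339 bp from a FOS+JUN site, which was itself the third-ranked of its class, with FOS at 37.4 and JUN at 23.7. At chr1:179112149-179112800 a JUNB summit (28.8-fold) lay 337 bp from the first-ranked FOS+JUN site (FOS 37.2, JUN 30.3). In both examples the JUNB peak, and the joint interval of the FOS and JUN peaks, covered both positions, and each peak in the lists has 1 summit.

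Counting peak intervals showed how far this reached. Here, and for the isolated sites below, a site was in the top quintile if any 1 of its proteins was. Of 810 such FOS+JUN sites, 118 had FOS and 744 had JUN in the top quintile of its own list. In the top quintile, 19 of 27 sites of FOS alone, 18 of 18 of JUNB alone and 170 of 190 of JUN+JUNB had peaks that overlapped a peak of a protein they lacked. The same held for 88 of 810 FOS+JUN sites, 71 of 237 FOS+JUNB sites and 84 of 260 sites of JUN alone. Over all strengths the share was small for FOS alone (0.779%), JUN alone (2.96%), JUNB alone (4.72%), FOS+JUN (1.02%) and FOS+JUNB (1.53%). For JUN+JUNB it was 29.3% (27.4 to 31.2), as 642 of its 2191 sites overlapped a FOS peak.

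JUN+JUNB also stood close to other AP-1 sites. Of its sites, 43.7% had another AP-1 site within 1 kb and 29.7% had one no more than 500 bp away. In the other 6 combinations the shares were 22.5% to 31.6% and 10.1% to 13.1%. When whole peaks that overlap were merged instead, an alternative chosen after seeing the data, JUN+JUNB made up 0.772% of 199457 sites.

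Among the single-protein combinations, JUN alone kept strong sites that were isolated. Of its 260 sites in the top quintile, 176 overlapped no FOS or JUNB peak, against 8 of 27 for FOS alone and 0 of 18 for JUNB alone. These 176 sites had a median fold enrichment of 14.8 and a median peak length of 234 bp. In non-transformed cells, 167 of them (94.9%) already had a summit of at least 1 AP-1 protein within 300 bp, against 61.8% of all sites. The share was not particular to JUN alone. Among top-quintile sites without an overlapping peak it was 96.5% for FOS+JUN and 95% for JUN+JUNB. It was lower for FOS+JUNB (57.8%) and for FOS alone (2 of 8 sites). At the 176 solitary JUN sites the earlier summit was JUN at 157, FOS at 65 and JUNB at 14. In transformed cells STAT3 lay within 300 bp of 26 (14.8%) and NFKB1 of 41 (23.3%) of these 176 sites. Over all 260 sites, those with an overlapping peak included, the shares were 31.5% and 39.6%. The shares over all AP-1 sites, of any strength, were 35.2% and 31.7%. Among top-quintile sites without an overlapping peak they were 54.0% and 55.5% for FOS+JUN and 48.8% and 31.9% for FOS+JUNB. For the 20 such JUN+JUNB sites they were 30% and 15%.

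The strongest of these solitary JUN peaks was the fourth of the whole JUN list. It lay at chr10:80679709-80680163 with a fold enrichment of 62.1 and a pileup of 112 reads, had its nearest other AP-1 site 5827 bp away, was JUN alone in non-transformed cells too, and had neither STAT3 nor NFKB1. The next 2 were at chr11:534576-534935 (39.0-fold) and chr19:42034600-42034867 (35.7-fold), with the nearest other AP-1 site at 14350 and 3267 bp. Both had STAT3 and NFKB1. What sequence or gene lies under these peaks was not analysed here.

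JUN alone and JUNB alone were unevenly spread over the chromosomes. FOS alone varied less, from 21.0% of sites on chromosome 19 to 29.0% on X. JUN alone made up 23.7% of the 3380 sites on chromosome 19, 16.9% on chromosome 22 and 16.6% on chromosome 17, and 10.9% to 14.5% on the others. JUNB alone had its lowest shares on chromosomes 22 (1.40%) and 19 (1.48%) and its highest on chromosome 13 (6.08%). Sites of all 3 proteins ran from 28.8% (27.3 to 30.3) on chromosome 19 to 40.2% on chromosomes 10 and 21. Chromosomes 19, 17 and 22 are known as gene-rich and chromosome 13 as gene-poor.

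The summits of the 3 proteins lay close to each other. At sites of all 3, the median distance was 16 bp between FOS and JUN, 16 bp between FOS and JUNB and 18 bp between JUN and JUNB. The 3 summits fitted into a median of 28 bp, and into 50 bp at 78.4% of sites. At sites with a pair alone the medians were longer, with 26 bp (26 to 27) for FOS+JUN, 23 bp (23 to 24) for FOS+JUNB and 32 bp (29 to 33) for JUN+JUNB.

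The gap narrowed at matched strength. Sites were split into quintiles by the percentile of the weaker of both peaks. In the fourth quintile, the FOS to JUN distance was 15 bp with and without JUNB, and the FOS to JUNB distance was 14 bp with JUN and 15 bp (14 to 17) without it. In the weakest quintile the pair FOS+JUN remained wider, at 34 bp (33 to 35) against 29 bp (28 to 30) with JUNB present, and JUN+JUNB at 42 bp (39 to 46) against 33 bp (32 to 34) with FOS present. For FOS+JUNB the weakest quintile gave 31 bp without JUN and 32 bp with it.

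**Figure D3:**
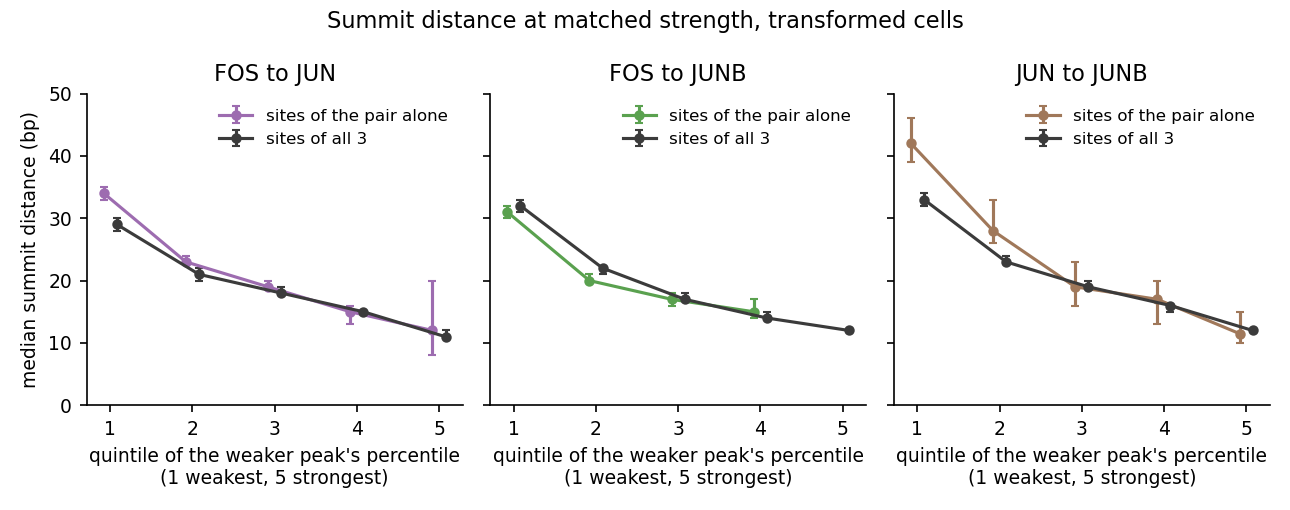
Median distance between summits in bp (vertical axis) by quintile of the weaker peak's within-list percentile (horizontal axis) for each protein pair, at sites of all 3 proteins and at sites of the pair alone; bars are order-statistic 95% intervals, and strata under 50 sites are left out. Distances shrink from 29 to 42 bp in the weakest quintile to 11 to 12 bp in the strongest, and the kinds of site differ most in the weakest quintile of FOS to JUN and JUN to JUNB.

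No protein sat apart from the other two. Among 71099 sites of all 3 with 3 different summit positions, FOS was in the middle at 37.7%, JUNB at 31.7% and JUN at 30.5%. The libraries differ in depth and in strength at these sites, and their part in this order was not tested.

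STAT3 and NFKB1 were found mainly where all 3 AP-1 proteins were. A STAT3 summit lay within 300 bp of 35.2% of all AP-1 sites and an NFKB1 summit within 300 bp of 31.7%. At sites of all 3 proteins the shares were 64.1% (63.8 to 64.4) and 59.3% (59.0 to 59.7), and 48.6% had both. At sites of JUNB alone they were 5.96% and 5.68%, though with the 50000 strongest peaks of each AP-1 list they were 35.8% and 29.1%. Sites of all 3 made up 82.7% of the 44112 AP-1 sites with both factors and 17.3% of the 109213 with neither.

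With all peaks of each list, the combinations differed in which factor was more frequent. FOS alone had STAT3 at 13.4% and NFKB1 at 8.14% of sites, and FOS+JUNB had 22.6% and 14.2%. JUN alone had the reverse order, with STAT3 at 10.9% (10.5 to 11.3) and NFKB1 at 13.5% (13.1 to 13.9). FOS+JUN had nearly equal shares, 34.0% and 33.2%, as did JUN+JUNB, 30.8% and 33.9%. These levels depended on how weak the AP-1 peaks were allowed to be, and the order at JUN alone on how weak the STAT3 and NFKB1 peaks were. With 50000 peaks per list STAT3 and NFKB1 were at 49.98% and 35.9% of sites of FOS alone, 55.2% and 44.3% of FOS+JUNB, 47.5% and 51.2% of JUN alone, 69.5% and 64.1% of FOS+JUN and 60.3% and 56.4% of JUN+JUNB. Over all peaks NFKB1 was at 33.2% of FOS+JUN sites and 14.2% of FOS+JUNB sites, although FOS was the stronger in FOS+JUNB.

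**Figure D4:**
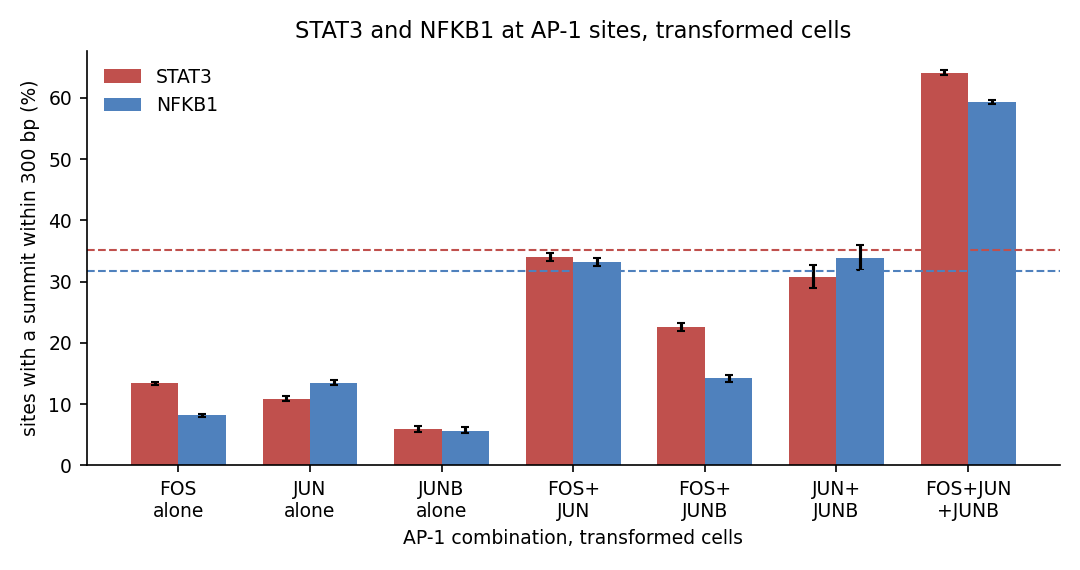
Share of sites in percent (vertical axis) with a STAT3 or NFKB1 summit within 300 bp, for each AP-1 combination (horizontal axis); error bars are Wilson 95% intervals over sites, and dashed lines mark the shares over all AP-1 sites, 35.2% and 31.7%. Sites of all 3 proteins stand highest at 64.1% and 59.3%, and JUNB alone lowest at 5.96% and 5.68%.

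At matched FOS strength the difference between FOS+JUN and FOS+JUNB was still there. From the weakest to the strongest quintile of the FOS list, NFKB1 was at 29.1%, 33.2%, 34.9%, 36.7% and 62.7% of FOS+JUN sites. At FOS+JUNB sites the shares were 11.1%, 10.3%, 13.7%, 19.1% and 44.3%. The intervals of both did not overlap in any quintile. STAT3 showed the same order, with 25.9% to 69.5% for FOS+JUN and 13.0% to 53.2% for FOS+JUNB. The strengths of JUN and JUNB were not matched here. With quintiles of the highest percentile of any protein at the site, the STAT3 intervals overlapped in the strongest quintile. The shares there were 56.8% (53.4 to 60.2) for FOS+JUN and 53.2% (46.8 to 59.4) for FOS+JUNB. For NFKB1 they were 58.4% (55.0 to 61.7) and 43.9% (37.7 to 50.2).

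In the weaker 4 quintiles FOS+JUNB sites were closer to sites of FOS alone than to FOS+JUN sites. In the weakest, STAT3 was at 9.34% of sites of FOS alone and 13.0% of FOS+JUNB sites, and NFKB1 at 6.64% and 11.1%. In the third quintile STAT3 was at 21.0% (20.2 to 21.9) of sites of FOS alone and 22.6% (21.5 to 23.8) of FOS+JUNB sites. In the fourth the shares were 32.0% and 34.0%. Likewise, sites of all 3 were close to FOS+JUN in the second quintile, with 33.2% for NFKB1 in both. They moved above it in the fourth (47.5% against 36.7%) and the strongest quintile (81.2% against 62.7%). Averaged over the quintiles with the weights of the whole FOS list, a comparison chosen after seeing the data, NFKB1 was at 19.4% for FOS alone, 19.9% for FOS+JUNB, 39.5% for FOS+JUN and 46.1% for all 3, where the strongest quintile of FOS alone rests on 27 sites. For STAT3 these averages were 26.4%, 27.8%, 42.7% and 49.4%.

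**Figure D5:**
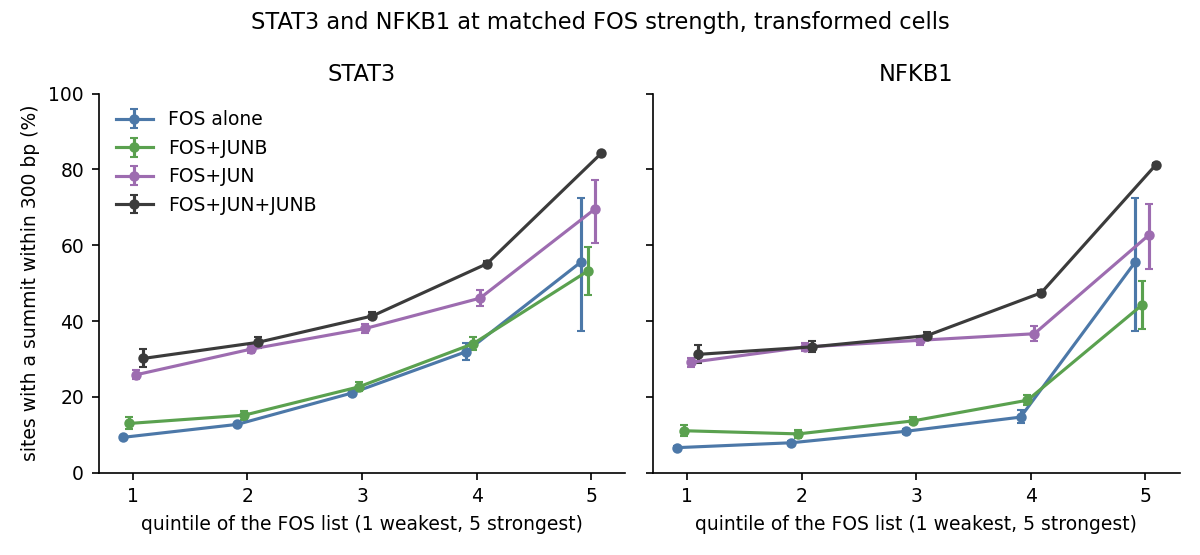
Share of sites in percent (vertical axis) with a STAT3 (left) or NFKB1 (right) summit within 300 bp, by quintile of the FOS list (horizontal axis), for the 4 combinations with FOS; bars are Wilson 95% intervals. Combinations with JUN lie above those without it up to the fourth quintile, and FOS+JUNB lies closer to FOS alone than to FOS+JUN there.

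Seen from the JUN list, sites with FOS had more of both factors than JUN alone. In the weakest quintile of JUN, STAT3 was at 8.01% of sites of JUN alone and at 27.1% of FOS+JUN sites. In the strongest quintile the shares were 31.5% (26.2 to 37.4) and 56.3%. From the JUNB list, the weakest quintile had STAT3 at 4.17% of sites of JUNB alone, 20.5% with FOS, 19.6% with JUN and 44.3% with both. The values of JUN+JUNB moved with its neighbours. Among its 1233 sites with no other AP-1 site within 1000 bp, STAT3 was at 15.5% and NFKB1 at 20.03%, whereas FOS+JUN had 30.4% and 30.0% under the same limit, which was chosen after seeing the data.

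STAT3 and NFKB1 summits lay closest to the AP-1 summits at sites of all 3 proteins. The median distance to the nearest AP-1 summit was 11 bp for STAT3 and 12 bp for NFKB1 there. It was 16 to 21 bp at sites of pairs and 30 to 65 bp at sites of 1 protein. With 3 summits in a site the nearest is closer by construction. The STAT3 and NFKB1 peaks were also stronger there. Their median fold enrichment was 10.1 and 7.69 at sites of all 3, 6.38 and 5.79 at JUNB alone and 6.44 and 5.59 at JUN alone. The strongest peak within 300 bp of any summit was taken, so a site with more summits can draw on more peaks.

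In non-transformed cells, 61.8% of the sites already had a summit of at least 1 of the 3 AP-1 proteins within 300 bp. The share was 92.6% (92.4 to 92.8) for sites of all 3, 73.8% for JUN+JUNB, 72.0% for FOS+JUN, 56.8% for FOS+JUNB, 43.1% for JUN alone, 28.7% for FOS alone and 19.7% for JUNB alone. The lists of non-transformed cells are shorter, with 119754 peaks for FOS, 81444 for JUN and 75249 for JUNB, and the library of JUNB had 9178601 reads. Library names give 36 h for non-transformed and 12 h for transformed cells. The replicate letter also differs between these conditions for JUNB (C and A) and STAT3 (B and A). Depth and hours, and for JUNB and STAT3 the replicate letter, therefore cannot be told apart from condition.

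At most sites of 1 or 2 proteins the lists of non-transformed cells gave another combination or none. The same combination was found in non-transformed cells at 49.2% of sites of all 3, 23.7% of JUN alone, 18.7% of FOS+JUN, 17.2% of FOS alone, 16.6% of FOS+JUNB, 4.06% of JUN+JUNB and 2.88% of JUNB alone. Sites of all 3 that were not complete before had most often been FOS+JUNB (12300 sites), FOS alone (10825) or FOS+JUN (7283). Only 1002 had been JUN alone and 805 JUNB alone. Over all 75094 complete sites, FOS was already there at 89.7%, JUNB at 67.1% and JUN at 60.7%. Among the pairs, 13.9% of JUN+JUNB sites had been complete before, against 6.05% of FOS+JUN and 4.35% of FOS+JUNB sites. An earlier FOS summit was found at 55.4%, 54.5% and 50.8% of them.

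FOS+JUN and FOS+JUNB differed in the earlier state as well. At matched FOS strength, an earlier AP-1 summit was present at 65.6% of FOS+JUN and 46.1% of FOS+JUNB sites in the weakest quintile, and at 80.1% and 64.6% in the fourth. STAT3 was already present in non-transformed cells at 18% of all AP-1 sites, 20.5% of FOS+JUN sites and 4.50% of FOS+JUNB sites. FOS+JUN was thus near the share of all sites, and FOS+JUNB was below it. Over the quintiles of FOS strength the shares ran from 17.8% to 41.5% for FOS+JUN and from 4.03% to 19.1% for FOS+JUNB, both highest in the strongest quintile. For NFKB1, whose library of non-transformed cells had 4837474 reads, the shares were 6.09% of all sites, 5.41% of FOS+JUN and 1.42% of FOS+JUNB.

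Complete sites split by history also differed in strength and in STAT3 and NFKB1. The 36959 sites that had all 3 proteins in both conditions had a median FOS percentile of 86.7, with STAT3 at 77.4% and NFKB1 at 76.8% in transformed cells. The 32573 sites with some of the proteins before had 67.9, 51.5% and 43.6%. The 5562 sites with none before had 60.5, 49.3% (47.9 to 50.6) and 35.3% (34.0 to 36.6). Strength and history move together here, and their parts in the STAT3 and NFKB1 shares were not separated.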

How the data were processed

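ChIP-seq was done in ER-Src cells for 5 proteins in 2 conditions, with 1 sample per group. The authors aligned reads of 36 bp with Bowtie (version not given in the sources used here) to hg19 according to the submitters' processing notes. Per the file headers, they called peaks per library with MACS version 2.0.10.20131216 without a control, with an effective genome size of 2700000000, a q-value cutoff of 0.05, a local background over 1000000 bp and 1 read kept at each position. The deposited pileup is a signal (extended reads over the summit, not scaled by depth). Significance is deposited as −log10 values of p-value and q-value, and the deposited fold enrichment is a ratio to the local background.

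Neighbouring summits up to 300 bp apart were chained into sites. A site takes the highest percentile of each protein, STAT3 and NFKB1 are present within 300 bp of any AP-1 summit, and distances use the highest-ranked summits. Because no control was used, fold enrichment nearly follows pileup (Spearman 0.984 for JUN, 0.986 for FOS and 0.990 for JUNB). With 1 sample per group no test was made. Intervals are 95% Wilson or order-statistic intervals and cover the sampling of sites only. Named sites are, per combination, the 3 with 1 summit of each protein and the smallest sum of ranks. Sites, combinations and lists were chosen with earlier results of these data known.

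The code, run with numpy 2.4.6, pandas 2.3.3 and matplotlib 3.10.9 under Python 3.11.15, was tested on simulated data with 20000 sites. Peaks end past the GRCh38 chromosome ends on 14 of 23 chromosomes (1108 peaks), so the reference at hand is of another build. Sequences, motifs and genes were not analysed here, and no coordinates were converted. Alternatives were other merging and presence distances, stricter or equal-length lists, pileup or q-value as strength, and subsets of sites.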

Additional observations from a re-analysis of the deposited data

How the results depend on the processing

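No paired analysis was possible because each group has 1 sample, and leaving out a replicate could not be run. Searches for sequence motifs were not run without a genome of the build. The strength differences kept their sign, whereas counts, shares and absolute distances have no sign to change. Some orders did turn. At JUN+JUNB sites NFKB1 exceeded STAT3 over all peaks (33.9% and 30.8%), but STAT3 exceeded NFKB1 with 50000 peaks per list (60.3% and 56.4%). Sites of all 3 proteins had the highest STAT3 and NFKB1 shares, and FOS+JUN exceeded FOS+JUNB, in each of 8 alternatives. The average over FOS quintiles, 1 of these, compares only combinations with FOS. Within quintiles of the site's highest percentile, sites of all 3 were not always highest for NFKB1. In the third they had 30.5% (29.6 to 31.4) and FOS+JUN 32.6% (31.6 to 33.6). In the fourth they had 44.7% (44.1 to 45.3) and JUN+JUNB 54.2% (48.7 to 59.6). They were highest for NFKB1 in the other quintiles and for STAT3 in each. Merging at 150 or 500 bp, no chaining, all chromosomes and overlapping peaks kept each count of sites within 1.5 times. With a stricter threshold (−log10 q of at least 9.88 in the AP-1 lists) sites of all 3 numbered 42938, JUN+JUNB 605, FOS+JUN 7478, FOS 29660, JUN 7798 and JUNB 1449. With 100000 peaks per list the counts became 14093 for FOS, 15244 for JUNB, 6866 for FOS+JUN and 4987 for JUN+JUNB. With 50000 peaks, sites of all 3 numbered 35198, FOS+JUNB 6809, FOS+JUN 2514, FOS 5466, JUN 9526 and JUNB 5239. These lists hold fewer peaks by construction. Without neighbours within 1000 bp, JUN+JUNB kept 1233 sites.

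The strength difference between sites of all 3 and sites of the protein alone was 54.5 percentile points for FOS, 45.3 for JUN and 52.3 for JUNB. It moved to 55.0, 38.3 and 48.8 with the stricter threshold, 50.8, 37.6 and 50.9 with 100000 peaks, 48.7, 38.1 and 50.5 with 50000 peaks, and 52.4, 44.8 and 49.6 with pileup as strength. For FOS it was 53.5 with the q-value and 54.8 at sites with 1 summit of each protein. Summit distances at sites of all 3 (FOS to JUN, FOS to JUNB, JUN to JUNB) became 13, 14 and 14 bp with the stricter threshold, 15, 15 and 17 bp with 100000 peaks and 12, 13 and 14 bp with 50000 peaks.

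At sites of all 3, STAT3 and NFKB1 were at 78.8% and 75.7% with the stricter threshold, 68.4% and 63.7% with 100000 peaks, 83.0% and 80.7% with 50000 peaks, and 62.9% and 58.2% within 150 bp. A stricter threshold on STAT3 gave 40.6%, and one on NFKB1 gave 27.6%. These last shares at sites of all 3, and the shares at sites of 1 or 2 proteins, moved by more than 1.5 times. With the stricter thresholds on STAT3 and NFKB1 the shares were 4.89% and 2.04% for FOS and 13.5% and 7.92% for FOS+JUN. With the stricter threshold on the AP-1 lists they were 32.6% and 22.3% for FOS, 33.0% and 41.1% for JUN, 24.6% and 22.1% for JUNB, 61.0% and 57.9% for FOS+JUN, 43.1% and 32.5% for FOS+JUNB and 61.2% and 59.3% for JUN+JUNB. Chosen after seeing the data, sites without neighbours had 59.0% and 53.9%, and averages over quintiles of FOS strength were 49.4% and 46.1%. The lists were called without a control, the libraries of transformed cells held 8967267 to 22082403 reads, and solitary sites were mostly weak peaks, so their number depends on where each list stops.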
